A study of Mus musculus with 8 samples.

Results

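The genes described here build the MHC class I antigen presentation pathway of the mouse: the heavy chains H2-K1, H2-D1, H2-M3, H2-T23 and H2-Q4, the light chain B2m, the peptide transporter Tap1 and Tap2, the loading chaperone Tapbp and the transcriptional activator Nlrc5. They were taken by gene symbol from the table of gene counts, and all 10 were found among its 55401 genes. All 10 also passed the filter on low counts, which left 27573 genes tested. They were chosen by their measured counts in these same Nynrin CKO and control libraries, so the differences given for them are descriptions and carry no test.

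The RNA came from haematopoietic stem cells (HSCs), the self-renewing source of all blood lineages. They were sorted by flow cytometry from the marrow of C57BL/6 mice at 8 weeks of age, with about 3000 cells per sample. The 4 Nynrin CKO libraries came from Nynrin fl/fl mice with Tie2-Cre, a recombinase expressed in endothelium and in the blood cells derived from it. The 4 control libraries came from Nynrin fl/fl mice without Cre and are labelled wild type, so both groups carried the floxed alleles. Only Nynrin CKO carried Cre, so its own effects and those of the deletion cannot be told apart. Whether every library is a different animal is not stated in the labels, and the spread between libraries may be partly technical.

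In this pathway, peptides cut from cytosolic proteins by the proteasome are pumped into the endoplasmic reticulum by the TAP transporter. There tapasin and other chaperones hold an empty heavy chain with beta-2 microglobulin until a peptide fits, and the complex then moves to the cell surface, where CD8 T cells and natural killer cells read it. Interferons raise the transcription of most of these genes, and NLRC5 binds at class I promoters as their dedicated activator. HSCs are known to carry class I molecules on their surface.

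Class I promoters are known for sites of interferon regulatory factors, NF-kappaB, CREB-type factors and NF-Y. RefSeq sequence (build GRCm38.p6, the same assembly as mm10) was matched by symbol for 8 of the 10 genes, all but Tap2 and Nlrc5. The 250 bases before the start site were searched on both strands for GAANNGAAA, a core of sites bound by interferon regulatory factors, for GGGATTCCC, a core of NF-kappaB sites, for TGACG, a core of CREB-type sites, and for CCAAT, the box bound by NF-Y. These motifs did not share letters in the stretches printed, where letters that match on either strand stand in capitals. The 200 bases before the start are shown for H2-K1 at chr17:34000348-34000547 (minus strand), H2-D1 at chr17:35262894-35263093 (plus strand), H2-M3 at chr17:37270034-37270233 (plus strand), H2-T23 at chr17:36032702-36032901 (minus strand) and B2m at chr2:122147487-122147686 (plus strand), since the patterns of expression below turn on these genes. The RefSeq starts of H2-D1, H2-T23 and H2-M3 lie 364, 154 and 14 bases inside their records of the count table. That of Tapbp lies 3579 bases inside its record, and the others lie within 3 bases of the record's start.
H2-K1: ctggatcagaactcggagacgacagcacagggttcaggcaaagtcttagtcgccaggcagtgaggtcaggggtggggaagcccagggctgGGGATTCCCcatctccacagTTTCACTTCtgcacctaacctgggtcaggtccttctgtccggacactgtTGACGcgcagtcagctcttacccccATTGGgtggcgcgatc
H2-D1: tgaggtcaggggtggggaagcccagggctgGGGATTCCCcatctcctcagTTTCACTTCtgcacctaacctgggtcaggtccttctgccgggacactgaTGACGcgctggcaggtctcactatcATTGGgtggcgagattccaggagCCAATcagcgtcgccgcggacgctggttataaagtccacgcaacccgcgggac
H2-M3: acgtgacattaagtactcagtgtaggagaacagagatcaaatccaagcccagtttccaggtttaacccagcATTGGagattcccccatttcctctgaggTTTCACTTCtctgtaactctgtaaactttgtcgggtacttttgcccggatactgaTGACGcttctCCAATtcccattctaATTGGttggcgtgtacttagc
H2-T23: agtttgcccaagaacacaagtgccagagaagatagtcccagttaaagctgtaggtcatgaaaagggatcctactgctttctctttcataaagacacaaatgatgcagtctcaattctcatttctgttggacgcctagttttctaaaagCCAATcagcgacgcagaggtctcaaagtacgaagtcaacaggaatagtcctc
B2m: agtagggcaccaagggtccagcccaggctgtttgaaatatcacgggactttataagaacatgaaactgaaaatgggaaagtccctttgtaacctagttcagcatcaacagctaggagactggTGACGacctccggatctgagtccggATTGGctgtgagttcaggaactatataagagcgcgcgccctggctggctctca

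The IRF letters were found in 4 of the 8 promoters (H2-K1, H2-D1, H2-M3 and H2-Q4), against 6.31% of 32851 mouse promoter windows of the same length. The NF-kappaB letters were found in 2, H2-K1 and H2-D1, where 0.301% of all windows had them. TGACG was found in 6, all but H2-T23 and Tapbp, against 17.8% of windows, and CCAAT in all 8, against 33.8%. H2-K1 and H2-D1 held all of these letters in the same order, the NF-kappaB letters starting 110 and 170 bases before the start site and the IRF letters 90 and 150 bases before it. In H2-M3 the IRF letters began 101 bases before the start and TGACG 46 bases before it. H2-T23 and B2m lacked the IRF letters in these windows, which says nothing of sites elsewhere or spelled differently.

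Libraries of the same group were not alike, which bears on every value below. Nynrin, the deleted gene, was lower in all Nynrin CKO libraries, at 8.22 to 12.7 CPM (counts-per-million, with library sizes scaled by TMM), against 30.1 to 47.5 CPM in controls. Total counts were 43998525 to 56437299 in Nynrin CKO and 36942835 to 50260720 in controls. Nynrin CKO 3 and 4 and control 4 had few reads on olfactory and vomeronasal receptor genes (134 to 213 CPM). The other 5 libraries had more (854 to 1601 CPM). These sets, with few and with more receptor reads, are called receptor-poor and receptor-rich below. Nynrin CKO 1 and 2 resembled each other closely, as did 3 and 4, although each pair differed by more than sampling noise (chi-square per gene of 27.5 and 22.8, against 281 to 293 between the pairs). Between controls the chi-square per gene was 46.5 to 85.1. HSC markers summed to 3780 to 4290 CPM in Nynrin CKO and 3260 to 4100 CPM in controls (exact permutation p = 0.143, adjusted p = 0.161). Of these markers, 1 of 12 was higher in every Nynrin CKO library than in every control, near the 9.52% of all tested genes. All 12 were detected in every library.

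Summed markers of other blood cells differed between the Nynrin CKO pairs, and several sums were carried by 1 gene. Between genotypes, 5 sums were higher in every Nynrin CKO library than in every control. None of the 9 lists reached an adjusted p under 0.05 (exact permutation). Of all tested genes, 9.52% were higher in every Nynrin CKO library than in every control, the share to set beside each count of genes apart below. Of 12 neutrophil genes, 7 were higher in this way, and the list summed to 476 to 521 CPM in Nynrin CKO 1 and 2 and to 4060 to 4100 CPM in 3 and 4, against 206 to 364 CPM in controls. The B cell list summed to 167 to 260 CPM in Nynrin CKO 1 and 2 and 1150 to 1200 CPM in 3 and 4, against 96.2 to 141 CPM in controls, with 5 of 12 genes apart in this way, and Cd79a was at 0 in control 4. Mpo, a granule enzyme gene already transcribed in myeloid progenitors, made up most of the neutrophil sum in Nynrin CKO 3 and 4. It measured 164, 159, 2830 and 2820 CPM in Nynrin CKO 1 to 4, against 60.7 to 101 CPM in controls. Ighm, the immunoglobulin mu chain, was at 58.5, 53.8, 1010 and 1030 CPM in Nynrin CKO 1 to 4, against 38.5 to 84.9 CPM in controls. Monocyte and macrophage genes (5 of 12 apart) summed to 457 to 780 CPM in Nynrin CKO and 321 to 389 CPM in controls. T and NK cell genes (3 of 12 apart, Cd8a at 0 in Nynrin CKO 3 and control 4) summed to 157 to 311 CPM in Nynrin CKO and 62.3 to 91.2 CPM in controls, and erythroid genes (3 of 12 apart) to 2170 to 2540 CPM in Nynrin CKO and 1160 to 1490 CPM in controls. Lyz2 accounted for 367 to 547 CPM of the monocyte sum in Nynrin CKO and 262 to 329 CPM in controls, Nkg7 for 133 to 267 CPM of the T and NK cell sum in Nynrin CKO and 45.9 to 77.6 CPM in controls, and Car2 for 1910 to 2180 CPM of the erythroid sum in Nynrin CKO and 965 to 1280 CPM in controls. Some genes of more mature or defining expression in the same lists were low or overlapped between the groups. Ly6g reached at most 1.62 CPM in any library, Ms4a1 1.11, Cd3d 0.423 and Cd8a 0.784, and Mmp8, Pax5 and Hbb-bt overlapped. Others, among them Ltf, Camp, Cd79a, Cd79b and Klf1, were higher in every Nynrin CKO library than in every control. Ltf measured 19.5 to 22.6 CPM in Nynrin CKO and 0.963 to 16.1 CPM in controls. Cd79b measured 45.3 to 76.7 CPM in Nynrin CKO and 32.5 to 41.8 CPM in controls. Each of these 5 sums gave a two-sided exact permutation p of 0.0286, the smallest that 70 assignments of the libraries allow, and 0.0515 adjusted over 9 lists. All permutation p values here take the 8 libraries as independent, which the similar Nynrin CKO pairs may not be. If they are not, these p values are too small. Dendritic cell genes (1 of 10 apart) summed to 383 to 518 CPM in Nynrin CKO and 264 to 424 CPM in controls, and mast cell or basophil genes (4 of 10 apart, Prss34 and Ms4a2 at 0 in control 4 and Cma1 in control 2) to 35.1 to 136 CPM in Nynrin CKO and 11.1 to 35.3 CPM in controls (exact permutation p = 0.0571 each, adjusted p = 0.0734). Endothelial genes, with none of 12 apart, summed to 236 to 462 CPM in Nynrin CKO and 251 to 276 CPM in controls (exact permutation p = 0.429, also after adjustment). The part of other cells in the values below was not tested. In such bulk samples, more cells of a type and more RNA per cell cannot be told apart.

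Across the 10 class I genes, 9 had a positive log2 fold change of Nynrin CKO over control, and the median was 0.58, where the median of all tested genes was -0.09. In 7 of the 10 every Nynrin CKO library lay above every control, against 9.52% of all tested genes, and in none did every one lie below, against 4.83%. edgeR's quasi-likelihood test, adjusted over all tested genes at a threshold of 0.05, called 2 of the 10, H2-D1 and H2-M3, where it called 2.80% of all genes (2.22% as higher, 0.588% as lower). Nothing is read from these counts, because the same difference chose the genes. By the same test the count was 0 when any 1 library except control 4 was left out, with 3544 to 5874 of all genes at an unadjusted p under 0.05, 2 without control 4 (H2-M3 and Tap2, where 4.53% of all genes were called) and 7 in the receptor-rich set, 6 of them higher and H2-Q4 lower, where 6.69% of all genes were called. With scaling by total counts, the median of the 10 genes was 0.34 and that of all genes -0.34.

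**Figure D1:**
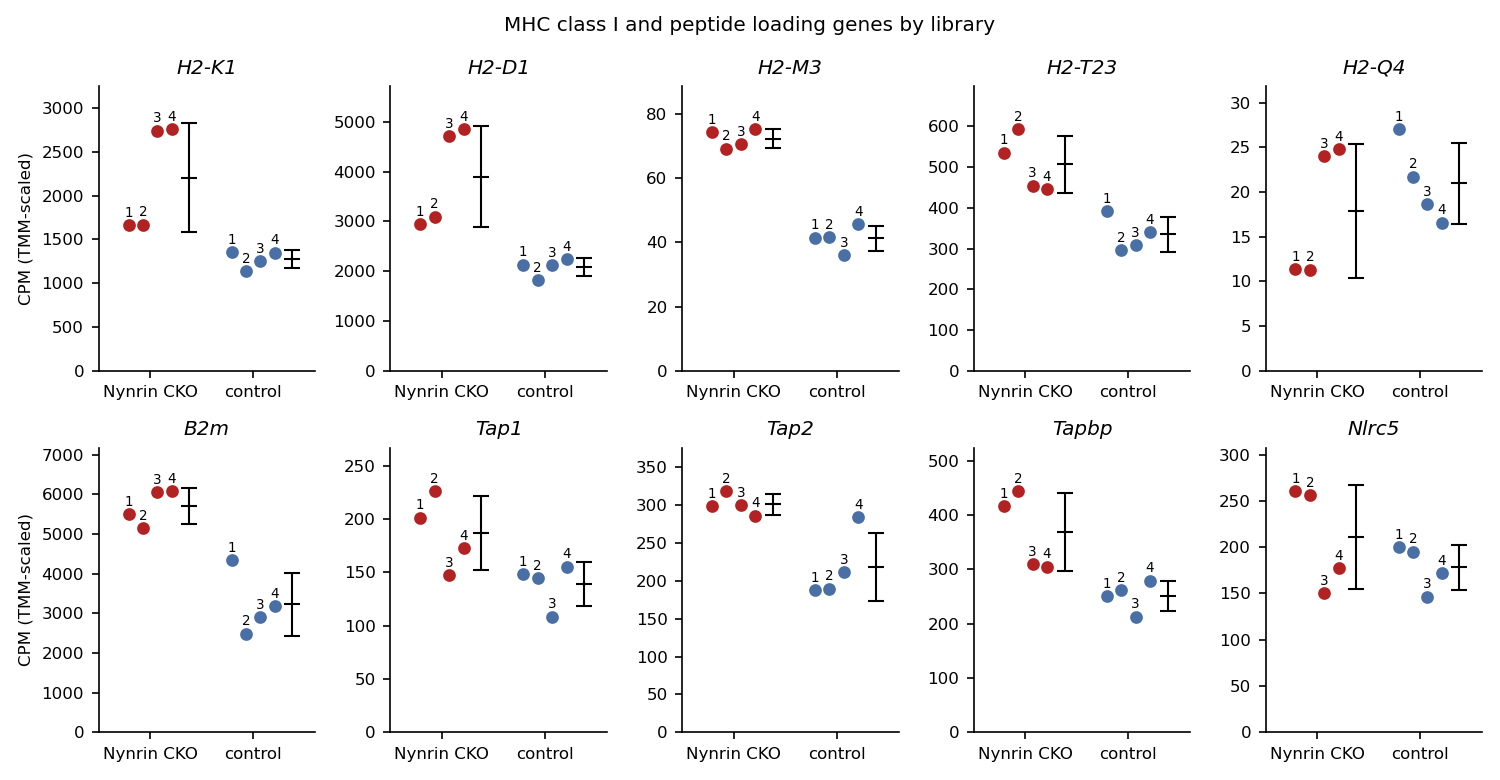
Levels of the 10 class I pathway genes in CPM (vertical axes, from 0) for 4 Nynrin CKO libraries (red) and 4 controls (blue). Numbers give the replicate, and the bar beside each group is its mean with the SD. H2-K1 and H2-D1 are highest in Nynrin CKO 3 and 4, whereas H2-T23, Tapbp and Nlrc5 are highest in Nynrin CKO 1 and 2.

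H2-K1 and H2-D1 encode the classical heavy chains Kb and Db of this strain, which present peptides to CD8 T cells. H2-K1 (chromosome 17, 33996017 to 34000347, minus strand, mm10) measured 1665, 1667, 2740 and 2755 CPM in Nynrin CKO 1 to 4, against 1352, 1138, 1252 and 1350 CPM in controls 1 to 4. All Nynrin CKO values lay above all controls, and Nynrin CKO 3 and 4 had 1.65 times the level of 1 and 2. The group means were 2210 ± 624 CPM in Nynrin CKO and 1270 ± 102 CPM in controls (SD, n = 4 each), a log2 fold change of 0.79 (standard error 0.20). It was 0.42 in the receptor-rich set and 1.02 in the receptor-poor set.

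H2-D1 (chromosome 17, 35262730 to 35267499, plus strand) showed the same arrangement of libraries. It measured 2950, 3094, 4719 and 4847 CPM in Nynrin CKO, against 2135, 1826, 2125 and 2244 CPM in controls. The means were 3900 ± 1020 CPM in Nynrin CKO and 2080 ± 179 CPM in controls (SD, n = 4 each), with a log2 fold change of 0.91 (standard error 0.20), or 0.58 and 1.09 in the receptor-rich and receptor-poor sets. Per length of transcript, the ratio of H2-D1 to H2-K1 was 1.33 to 1.43 in Nynrin CKO and 1.22 to 1.31 in controls. Of all 50-base windows in the longest coding transcript of each gene, 8.79% in H2-K1 and 14.3% in H2-D1 were found letter for letter in another gene's transcripts, so a small part of their reads could be assigned elsewhere. How the counter treated such reads is unknown here.

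The non-classical heavy chains fell into different patterns. H2-M3 presents peptides that begin with N-formylmethionine, which come from bacteria and mitochondria. Its gene (chromosome 17, 37270220 to 37274484, plus strand) measured 74.2, 69.1, 70.6 and 75.1 CPM in Nynrin CKO, against 41.5, 41.5, 36.1 and 45.7 CPM in controls. It had the smallest spread of the 10 relative to its mean in Nynrin CKO, at 72.3 ± 2.86 CPM, against 41.2 ± 3.95 CPM in controls (SD, n = 4 each), and the Nynrin CKO pairs did not separate. The log2 fold change was 0.81 (standard error 0.10), and 0.85 and 0.67 in the receptor-rich and receptor-poor sets. After each library was corrected for transcript length and GC content it was 0.52. Only 0.576% of its 50-base windows occurred in another gene.

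H2-T23 encodes the heavy chain of Qa-1b, the counterpart of human HLA-E, which displays signal peptides of other class I molecules to NKG2A receptors of natural killer cells. The gene (chromosome 17, 36029773 to 36032855, minus strand) measured 536, 592, 454 and 446 CPM in Nynrin CKO, against 392, 297, 309 and 341 CPM in controls. Here Nynrin CKO 1 and 2 were the highest libraries, and 3 and 4 reached 0.798 times their level, the reverse of H2-K1 and H2-D1. Means were 507 ± 69.9 CPM in Nynrin CKO and 335 ± 42.5 CPM in controls (SD, n = 4 each), with a log2 fold change of 0.60 (standard error 0.14), or 0.76 and 0.40 in the receptor-rich and receptor-poor sets. In H2-T23, 29.8% of 50-base windows occurred in another gene, most often the pseudogene H2-T-ps.

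H2-Q4, of the Qa region (chromosome 17, 35379617 to 35385290, plus strand), was the exception among the heavy chains. It measured 11.4, 11.3, 24.02 and 24.78 CPM in Nynrin CKO, against 27.0, 21.7, 18.6 and 16.6 CPM in controls. Nynrin CKO 1 and 2 lay below all controls, while 3 and 4 lay within the control range, at 2.15 times the level of 1 and 2. The groups overlapped, at 17.9 ± 7.53 CPM in Nynrin CKO and 21 ± 4.53 CPM in controls (SD, n = 4 each), with a log2 fold change of -0.23 (standard error 0.30), and it was -0.98 and 0.56 in the receptor-rich and receptor-poor sets. H2-Q4 is the least certain of the 10 genes, because 39.2% of its 50-base windows occurred in other genes and the overlapping antisense record Gm11131 held 16.2% as many counts.

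B2m encodes beta-2 microglobulin, the light chain that every class I heavy chain needs to reach the surface. The gene (chromosome 2, 122147686 to 122153083, plus strand) measured 5499, 5155, 6052 and 6086 CPM in Nynrin CKO, against 4347, 2486, 2909 and 3178 CPM in controls. All Nynrin CKO libraries lay above all controls, and control 1 stood above the other controls. Means were 5700 ± 451 CPM in Nynrin CKO and 3230 ± 797 CPM in controls (SD, n = 4 each), with a log2 fold change of 0.82 (standard error 0.19), or 0.71 and 0.93 in the receptor-rich and receptor-poor sets. It was 0.45 after correction for transcript length and GC content. No 50-base window of B2m occurred in another gene.

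Per length of transcript the light chain was the most abundant member in both groups. B2m stood at 6630 ± 525 CPM per kilobase in Nynrin CKO and 3760 ± 927 in controls (SD, n = 4 each, as for the genes that follow). H2-D1 stood at 1860 ± 485 in Nynrin CKO and 991 ± 85.2 in controls, and H2-K1 at 1360 ± 386 in Nynrin CKO and 786 ± 62.7 in controls. H2-T23, the most abundant non-classical chain among the 10 genes, stood at 344 ± 47.5 CPM per kilobase in Nynrin CKO and 227 ± 28.9 in controls. H2-Q6, which is not among the 10, measured 475 CPM in Nynrin CKO and 391 CPM in controls before division by length. H2-T23 measured 507 and 335 CPM in this way. Tapbp, Tap2, Tap1, H2-M3, Nlrc5 and H2-Q4 came next in both groups, from 127 down to 9.97 CPM per kilobase in Nynrin CKO and from 86.7 down to 11.7 in controls. These levels use the longest coding transcript of each gene, and with it every neighbour in this order stood above the next in 4 of 4 Nynrin CKO and 4 of 4 control libraries. The ranges over libraries overlapped for H2-D1 and H2-K1 and for Tap1 and H2-M3 in Nynrin CKO, and for Tapbp and Tap2 and for H2-M3 and Nlrc5 in controls. With the longest transcript of any kind, Tap1 stood at 47.8 CPM per kilobase in Nynrin CKO, below H2-M3 at 50.3, and at 35.6 in controls, above H2-M3 at 28.7.

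The balance of light to heavy chain transcripts varied between libraries more than between genotypes. B2m per kilobase was 2.63, 2.40, 1.79 and 1.77 times the sum of H2-K1 and H2-D1 in Nynrin CKO 1 to 4, against 2.73, 1.84, 1.90 and 1.94 times in controls 1 to 4. The ranges overlapped, with means of 2.15 ± 0.435 in Nynrin CKO and 2.10 ± 0.420 in controls (SD, n = 4 each). The high ratios were those of Nynrin CKO 1 and 2 and of control 1.

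Tap1 and Tap2 form the transporter that carries peptides into the endoplasmic reticulum. Tap1 (chromosome 17, 34187553 to 34197225, plus strand) measured 201, 226, 148 and 173 CPM in Nynrin CKO, against 148, 145, 108 and 155 CPM in controls. Only Nynrin CKO 1, 2 and 4 exceeded every control, and the groups overlapped, at 187 ± 34.3 CPM in Nynrin CKO and 139 ± 21 CPM in controls (SD, n = 4 each), with a log2 fold change of 0.43 (standard error 0.16). Within the receptor-rich set it was 0.68, and in the receptor-poor set 0.04. Tap1 shares its start region with Psmb9, an immunoproteasome subunit transcribed from the other strand, whose record overlaps that of Tap1 and held 86.8% as many counts. Reads in the shared part cannot be told apart without strand, and no source used here names the strand setting.

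Tap2 (chromosome 17, 34203527 to 34216321, plus strand) measured 299, 318, 299 and 286 CPM in Nynrin CKO, against 188, 190, 211 and 283 CPM in controls. The groups did not overlap, but Nynrin CKO 4 and control 4 were nearly equal. Means were 300 ± 13.4 CPM in Nynrin CKO and 218 ± 44.8 CPM in controls (SD, n = 4 each). The log2 fold change was 0.46 (standard error 0.15), and it was 0.65 in the receptor-rich set and 0.05 in the receptor-poor set, where control 4 is the single control.

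Tapbp encodes tapasin, which bridges the transporter and the empty heavy chain and edits the peptides loaded. The gene (chromosome 17, 33915899 to 33926197, plus strand) measured 417, 445, 310 and 305 CPM in Nynrin CKO, against 251, 262, 213 and 280 CPM in controls. All Nynrin CKO libraries were above all controls, with 1 and 2 the highest. Means were 369 ± 72.0 CPM in Nynrin CKO and 251 ± 28.0 CPM in controls (SD, n = 4 each). The log2 fold change was 0.55 (standard error 0.16), or 0.83 and 0.14 in the receptor-rich and receptor-poor sets. In Tapbp 21.02% of 50-base windows matched another gene, mostly the record Gm19412 on the opposite strand, which held 0.70% as many counts.

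Nlrc5, the activator of class I promoters, overlapped between the genotypes. The gene (chromosome 8, 94434356 to 94527272, plus strand) measured 261, 256, 150 and 177 CPM in Nynrin CKO, against 200, 195, 147 and 172 CPM in controls. Nynrin CKO 1 and 2 were above every control, and 3 and 4 lay within the control range at 0.633 times the level of 1 and 2. The means were 211 ± 55.9 CPM in Nynrin CKO and 178 ± 24.3 CPM in controls (SD, n = 4 each), with a log2 fold change of 0.24 (standard error 0.20), or 0.52 and -0.07 in the receptor-rich and receptor-poor sets.

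**Figure D2:**
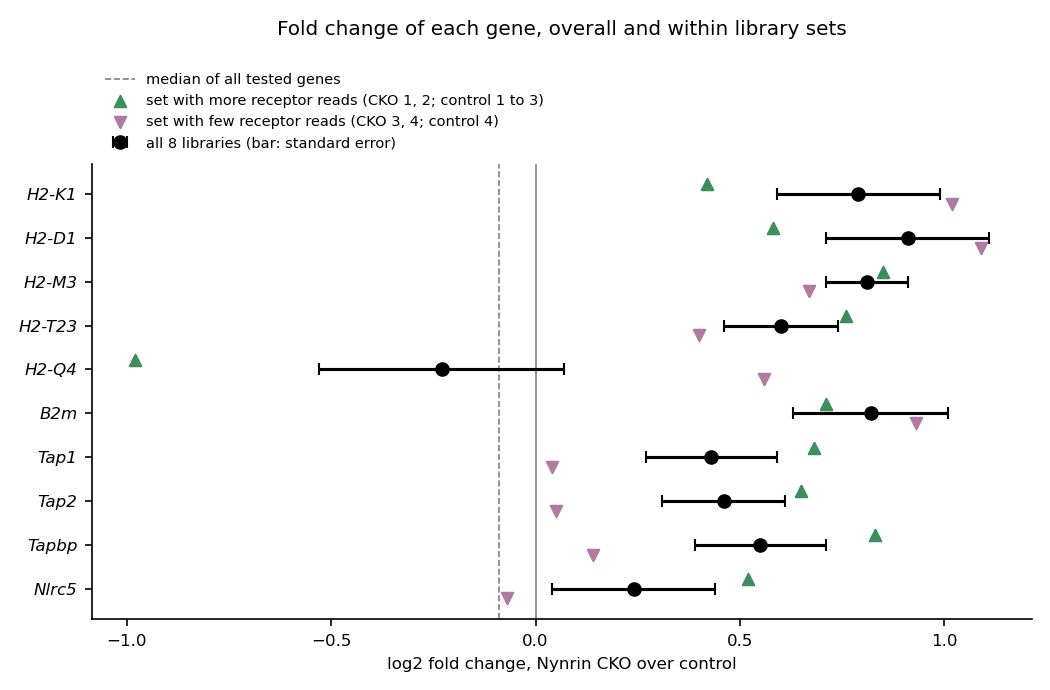
Log2 fold change of Nynrin CKO over control (horizontal axis) for each gene, from all 8 libraries with its standard error (black), in the receptor-rich set (green) and in the receptor-poor set (purple, 1 control). The dashed line is the median of all tested genes, -0.09. For Tap1, Tap2 and Nlrc5 the purple values lie between -0.07 and 0.05, and for H2-K1 and H2-D1 they exceed the green ones.

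The Nynrin CKO pairs divided the pathway. Nynrin CKO 3 and 4 were both above 1 and 2 for 4 of the 10 genes (H2-K1, H2-D1, H2-Q4 and B2m) and both below for another 4 (H2-T23, Tap1, Tapbp and Nlrc5), and for the remaining 2, H2-M3 and Tap2, the pairs overlapped. Among all tested genes 26.1% lay above in this way and 46.9% below. Relative to controls, Nynrin CKO 1 and 2 exceeded all 4 controls for 9 of the 10 genes (18.4% of all genes) and Nynrin CKO 3 and 4 for 7 (22.1% of all genes). Both pairs are Nynrin CKO, and they coincide with the library sets and with the levels of marker genes such as Mpo and Ighm, so library set and cell content cannot be told apart between them. With the library set as a term in the edgeR fit of all 8 libraries, the median log2 fold change of the 10 genes between genotypes was 0.60.

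The interferon-stimulated genes differed far more between the pairs. Of 26 such genes, 26 were higher in Nynrin CKO 1 and 2 than in all controls, against 18.4% of all tested genes. In Nynrin CKO 3 and 4 it was 3 of 26, against 22.1% of all tested genes. All 26 were lower in Nynrin CKO 3 and 4 than in 1 and 2, against 46.9% of all tested genes. The summed level of the 26 genes was 7178, 7158, 2201 and 2182 CPM in Nynrin CKO 1 to 4, against 3047, 1564, 1333 and 1824 CPM in controls 1 to 4. Control 1 had the highest sum among the controls. It also had the highest B2m, H2-T23, H2-Q4 and Nlrc5 among them, while its H2-K1 nearly equalled that of control 4 (1352 and 1350 CPM). The remaining class I genes, H2-D1, H2-M3, Tap1, Tap2 and Tapbp, were highest in control 4. Ifit3, an antiviral RNA-binding protein gene chosen here after its values were seen, was at 306, 293, 13.2 and 16.1 CPM in Nynrin CKO, against 32.5, 11.9, 9.19 and 14.9 CPM in controls.

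**Figure D3:**
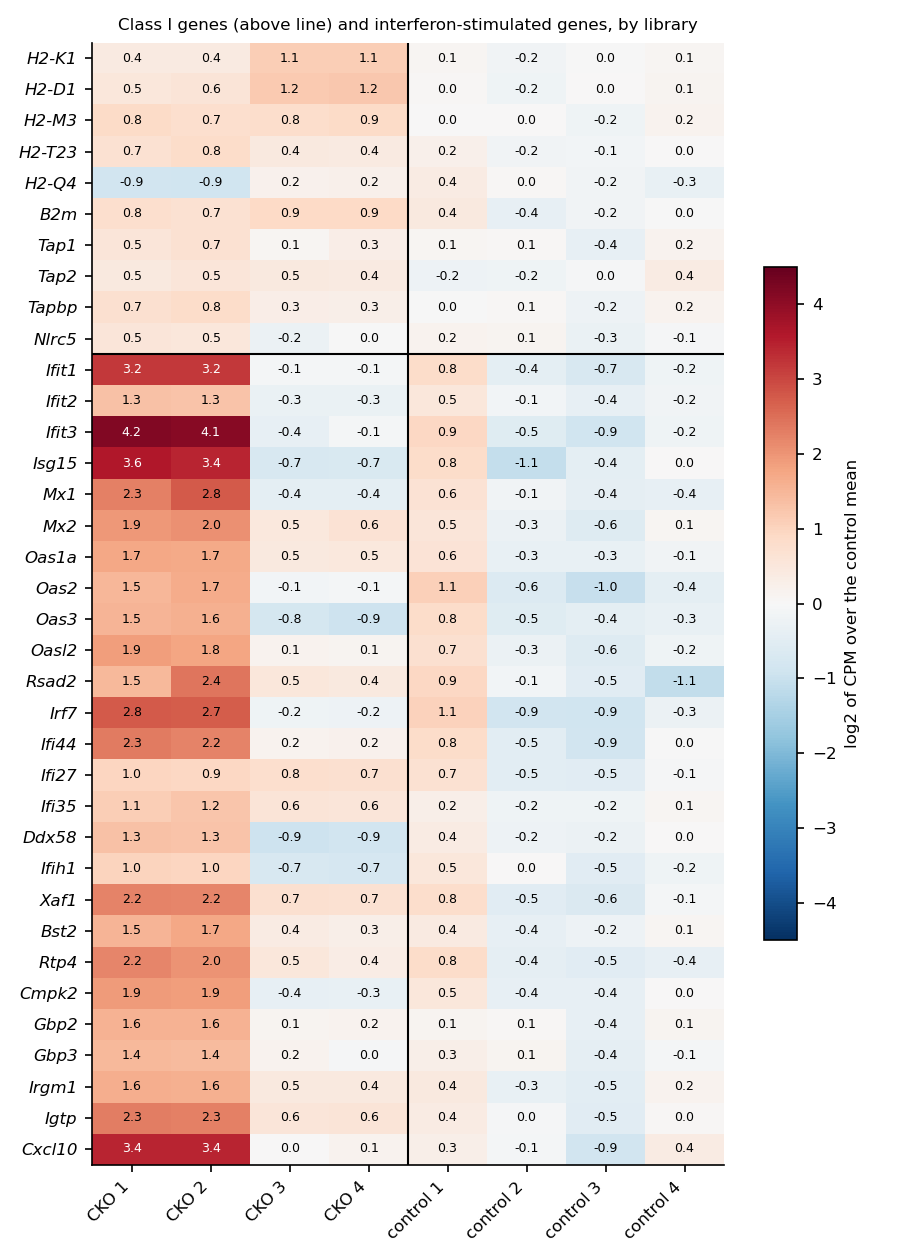
Log2 of each library's CPM over the control mean (colour and printed number) for the 10 class I genes, above the line, and 26 interferon-stimulated genes, in the 4 Nynrin CKO libraries (left) and the 4 controls (right). The interferon-stimulated genes are high in Nynrin CKO 1 and 2 and to a lesser extent in control 1, while H2-K1 and H2-D1 are highest in Nynrin CKO 3 and 4.

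Over all 8 libraries, 1 of the 26 interferon-stimulated genes passed the test as higher, and the list's median log2 fold change was 1.22. Among all tested genes 2.22% passed as higher and 0.588% as lower, the shares to set beside each list below. The passing gene was Ifi35, an interferon-induced protein gene, at 141 ± 34.5 CPM in Nynrin CKO and 74.9 ± 11.2 CPM in controls (SD, n = 4 each, log2 fold change 0.91, edgeR adjusted p = 0.0442). The median was 1.77 in the receptor-rich set and 0.17 in the receptor-poor set. Of 15 genes for interferon receptors and signalling, none rose and 1 fell, the kinase gene Tyk2, which serves the type I interferon receptor (43.8 ± 1.92 CPM in Nynrin CKO and 60.7 ± 5.47 CPM in controls, SD, n = 4 each, log2 fold change -0.47, edgeR adjusted p = 0.0456). Among 17 factors that act at class I promoters, 16 had a positive log2 fold change with a median of 0.17, and the 2 with the smallest p did not pass. Nfkb1, the p50 subunit of NF-kappaB, was at 0.47 (edgeR adjusted p = 0.0722), and Irf8 was at 2.51 (edgeR adjusted p = 0.0877), with 10.9, 10.5, 79.1 and 86.0 CPM in Nynrin CKO, against 4.44, 10.26, 10.13 and 7.965 CPM in controls.

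Peptides for the transporter are cut by the proteasome and its interferon-induced form, the immunoproteasome. Of 12 genes of this peptide supply 3 rose and none fell, with a median log2 fold change of 0.35. The immunoproteasome subunit gene Psmb10 was at 139 ± 14 CPM in Nynrin CKO and 79.5 ± 7.11 CPM in controls (SD, n = 4 each, log2 fold change 0.80, edgeR adjusted p = 0.0345). Psme2, a subunit of the PA28 activator, was at 136 ± 16.9 CPM in Nynrin CKO and 75.4 ± 11.2 CPM in controls (0.85, edgeR adjusted p = 0.0379), and the subunit gene Psmb8 at 509 ± 61.1 CPM in Nynrin CKO and 281 ± 52.7 CPM in controls (0.85, edgeR adjusted p = 0.0411). For Psmb10 the log2 fold change was 0.98 and 0.51 in the receptor-rich and receptor-poor sets, and for Psmb8 it was 0.77 and 0.83. Psmb9, named for its overlap with Tap1, was at 0.68 (edgeR adjusted p = 0.0540). The rise was not particular to the immunoproteasome. Constitutive proteasome genes outside the list, chosen after their values were seen, were called higher at similar sizes. Among them were Psmb2 (0.805), Psmb6 (0.78) and Psmc3 (0.77, edgeR adjusted p = 0.0345 each). The constitutive proteasome genes were not counted as a set here.

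In the loading complex and its chaperones 3 of 12 genes rose and none fell, with a median of 0.18. Pdia3, the disulphide isomerase of the loading complex, was at 1160 ± 137 CPM in Nynrin CKO and 711 ± 91.4 CPM in controls (SD, n = 4 each, log2 fold change 0.71, edgeR adjusted p = 0.0431). Tapbpl, a second peptide editor related to tapasin, was at 71.8 ± 8.03 CPM in Nynrin CKO and 46.4 ± 6.25 CPM in controls (0.63, edgeR adjusted p = 0.0451). Bcap31, which helps membrane proteins leave the endoplasmic reticulum, was at 394 ± 31.0 CPM in Nynrin CKO and 244 ± 32.3 CPM in controls (0.69, edgeR adjusted p = 0.0398). Among genes of this list that did not pass, the trimming peptidase gene Erap1 was at -0.27 (edgeR adjusted p = 0.203) and the lectin chaperone gene Calr at 0.32 (edgeR adjusted p = 0.161), both chosen after their values were seen.

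Of 21 other class I and class I-like genes, 1 rose (2.22% of all tested genes did) and none fell, with a median of 0.25. It was Fcgrt, the heavy chain of the neonatal Fc receptor, which also pairs with beta-2 microglobulin, at 62 ± 10.9 CPM in Nynrin CKO and 35.9 ± 4.28 CPM in controls (SD, n = 4 each, log2 fold change 0.79, edgeR adjusted p = 0.0408). The class I record H2-K2, which is not on the list and was named after its values were seen, was called higher, at 34.6, 33.5, 27.7 and 27.7 CPM in Nynrin CKO, against 17.4, 18.1, 12.6 and 14.2 CPM in controls (log2 fold change 0.99, edgeR adjusted p = 0.0345). A trio of class I genes, chosen after their values were seen, again divided the Nynrin CKO pairs. H2-T22 was at 194, 216, 112 and 118 CPM and H2-T24 at 46.4, 42.8, 14.6 and 12.8 CPM in Nynrin CKO 1 to 4, against 83.8 to 107 CPM for H2-T22 and 9.07 to 17.1 CPM for H2-T24 in controls. H2-Q1 was at 29.3, 19.4, 71.5 and 95.7 CPM in Nynrin CKO 1 to 4, against 28.7 to 31.6 CPM in controls, and it is the gene with which H2-D1 shared most of its matching windows. Of 11 MHC class II genes, with a median of 1.04, none fell and 2 rose, H2-DMa (log2 fold change 1.04, edgeR adjusted p = 0.0394) and H2-Oa (0.84, edgeR adjusted p = 0.0408), which encode chains of the class II peptide editors.

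Across all 7 lists 10 of 114 genes passed as higher and 1 as lower, where 2.22% and 0.588% of all tested genes did. By the same test none passed as higher when any 1 library except control 4 was left out, 15 passed without control 4, where 3.73% of all genes did, and 38 in the receptor-rich set, where 4.04% of all genes did.

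**Figure D4:**
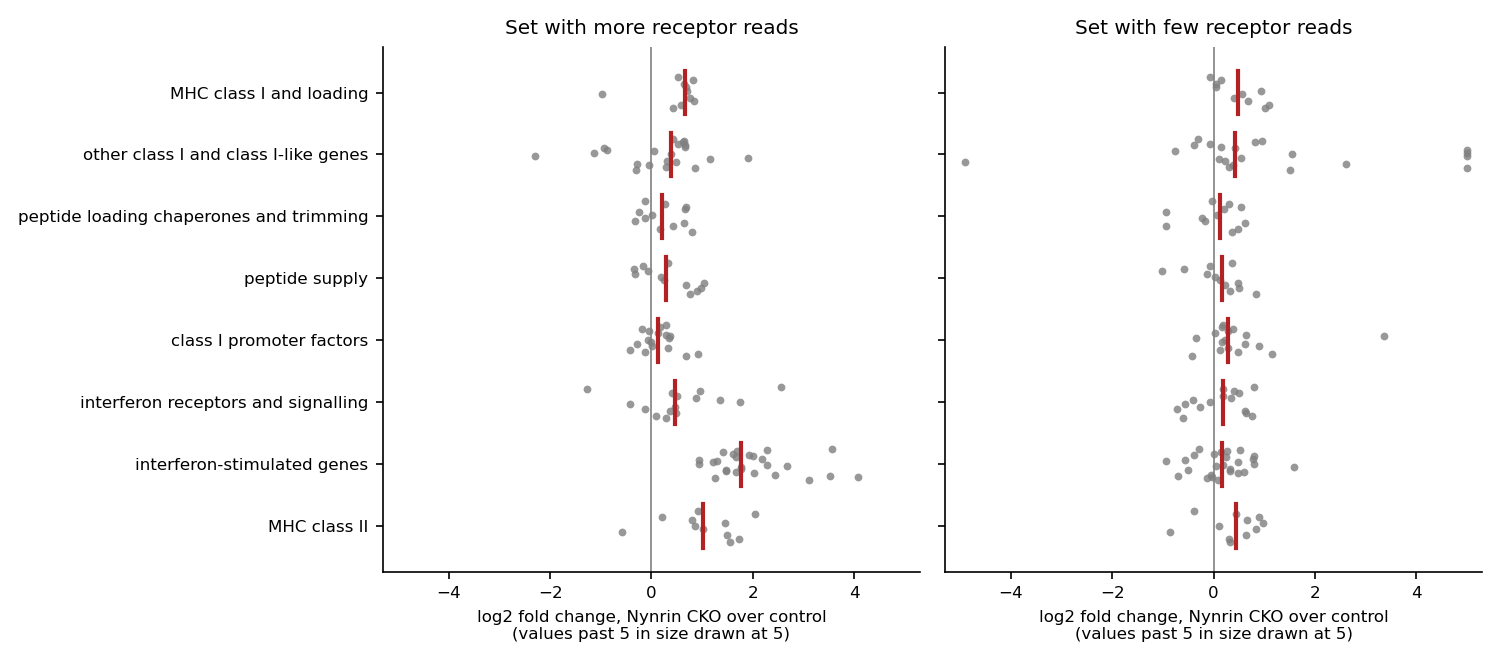
Log2 fold change of Nynrin CKO over control (horizontal axes) for the 10 class I genes and the tested genes of 7 related lists, 1 point per gene, with the median of each list in red, in the receptor-rich set (left) and the receptor-poor set (right, 1 control). The median of the interferon-stimulated genes is 1.77 on the left and 0.17 on the right, and that of the class I genes is 0.66 and 0.48.

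Transcript length also moved with the differences. Genes of at least 1 CPM on average were divided into 5 equal classes by transcript length. The shortest class, up to 1665 bases and with B2m and H2-M3 in it, had a median log2 fold change of 0.38. In the second class, which holds the remaining heavy chains, it was 0.23. It was 0.08 in the third (Tap2 and Tapbp), -0.08 in the fourth (Tap1) and -0.17 in the longest (Nlrc5). After correction for length and GC content, the median of the 10 class I genes was 0.52 and that of all tested genes -0.13.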

How the data were processed

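Counts in the table the authors deposited are whole numbers of reads for each gene and library, without normalization. The submitters' processing notes name mm10. Per the labels' protocols, Trizol was used for RNA and 5 ng of cDNA for each of the 8 libraries. Aligner, counter, strand setting and sort markers: not given in the sources used here.

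Counts were filtered with filterByExpr, scaled by TMM and tested with edgeR 4.0.16 (R 4.3.3), a robust quasi-likelihood F-test on all 8 libraries, with Benjamini-Hochberg adjustment over all tested genes and a threshold of 0.05. The fit was tested on simulated counts drawn independently for each library. These held no similar pairs, so that test does not bear on the Nynrin CKO pairs. CPM use the same factors. Standard errors are the log2 fold change divided by the root of F. Values within the sets of libraries (drawn at 300 CPM of receptor reads) come from 1 mean per group and set, with control 4, the single receptor-poor control, taken to have the spread of the remaining libraries. Counts of called genes in the receptor-rich set come from a fit of its 5 libraries alone. Transcript lengths are from GENCODE M21.

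The genes and lists were chosen with earlier results of these data known. Named were all 10 class I genes and, per list, up to 4 passing genes with the smallest p, or the 2 with the smallest p where none passed. The 5 genes of at least 10 CPM most like the class I genes were found from deviations from group means. Same-numbered libraries were checked for pairing and their deviations correlated at 0.203, 0.214, -0.262 and 0.386. These signs differ, so whether the numbers pair the libraries stays undecided. The fit as reported took no pairs, and a replicate block is among the alternatives. Alternatives were other scalings and filters, DESeq2 1.42.0, limma-voom 3.58.1, a replicate block, single libraries left out and library terms.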

Additional observations from a re-analysis of the deposited data

How the results depend on the processing

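The median log2 fold change of the 10 class I genes, 0.58 as reported, was positive under all 24 alternatives. It moved by more than the spread between libraries with upper-quartile scaling (0.47), total counts (0.34), a filter at a mean of 1 CPM (0.49), removal of mitochondrial, ribosomal protein and haemoglobin genes (0.49), in the receptor-poor set (0.48) and without control 3 (0.45). It was 0.45 to 0.66 with 1 library left out. In the following, counts are class I genes called, then listed pathway genes higher and lower, then all genes higher and lower, which were 2, 10 and 1, and 611 and 162 as reported. With RLE scaling they were 1, 0 and 0, and 13 and 22. With upper-quartile scaling they were 1, 6 and 1, and 225 and 251. With total counts they were 1, 1 and 1, and 59 and 318. With no filter they were 0, 0 and 0, and 33 and 16. With a mean of 1 CPM they were 2, 12 and 2, and 693 and 475. With DESeq2 they were 6, 42 and 5, and 1656 and 980. With limma-voom they were 7, 31 and 1, and 1649 and 504. Without robust estimation they were 1, 10 and 0, and 430 and 130. With the replicate block (edgeR) they were 0, 0 and 0, and 0 and 0, with 5144 genes at an unadjusted p under 0.05 and a class I median of 0.57. With the similar Nynrin CKO libraries summed they were 0, 0 and 0, and 0 and 0 (edgeR, 3022 genes at an unadjusted p under 0.05). With the library set as a term they were 6, 30 and 1, and 1221 and 408, and in the receptor-rich set 7, 38 and 0, and 1311 and 857. Without mitochondrial, ribosomal protein and haemoglobin genes they were 1, 1 and 0, and 27 and 87. With 1 library left out they ranged from 0 to 2, 0 to 15 and 0 to 0, and 1 to 1129 and 0 to 243, the high ends without control 4 (edgeR, 3544 to 6454 genes at an unadjusted p under 0.05). Chosen after seeing the data were the Xist class as a term (0, 0 and 0, and 4 and 6) and correction for transcript length and GC content (0, 0 and 0, and 2 and 2). The Xist class was high in controls 3 and 4 alone, and with it as a term the class I median was 0.61. The cause of these shifts was not tested.

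For single class I genes, 218 of 240 values moved by less than the spread between libraries and 22 by more. H2-D1 and H2-M3, called as reported, did not change sign. H2-Q4, not called as reported, was called lower in the receptor-rich set (-0.99, edgeR adjusted p = 0.0272, against up to 0.962 under other alternatives) and stood at 0.56 in the receptor-poor set. Across settings the log2 fold change was 0.41 to 1.02 for H2-K1, 0.57 to 1.09 for H2-D1, 0.52 to 0.88 for H2-M3, 0.35 to 0.75 for H2-T23, -0.99 to 0.56 for H2-Q4, 0.45 to 1.0 for B2m, 0.04 to 0.67 for Tap1, 0.05 to 0.67 for Tap2, 0.14 to 0.82 for Tapbp and -0.07 to 0.51 for Nlrc5.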

Other observations

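The likeness of other genes to the class I genes was measured as the Pearson correlation, over 8 libraries, between a gene's deviations from its group means and the mean standardised deviation of the 10 class I genes. The 5 highest were Zfp429 (0.972), Ndufb9 (0.971), Ccdc28a (0.969), Sec61g (0.965) and Sypl (0.965). The Nynrin CKO libraries fall into pairs and the class I genes into opposite patterns between them, so these values describe these libraries and no more.

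Per length of transcript, Tap2 stood at 1.27, 1.21, 1.74 and 1.42 times Tap1 in Nynrin CKO 1 to 4, against 1.08, 1.13, 1.67 and 1.56 times in controls 1 to 4. The 10 class I genes together took 11910, 11830, 14970 and 15170 CPM in Nynrin CKO 1 to 4, against 9080, 6601, 7330 and 8066 CPM in controls 1 to 4.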
